A study of Mus musculus with 42 samples.

Results

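SMART-Seq v4 and TruSeq libraries of the same immunoprecipitated RNA were compared gene by gene, in 6 of the 42 libraries of the series. The mice carried Gfi1Cre/+;Rpl22HA/HA, the second allele being the one known as RiboTag, so that cells with a history of Gfi1 expression hold ribosomes with an HA tag on the protein Rpl22, and the IP fraction is the liver RNA pulled down through that tag. Livers of 3 mice were used, and replicate 1, 2 and 3 of each protocol are aliquots of the RNA of the same mouse. No treatment was given. The growth protocol gives the age as 30 days and the stage label gives 1 day, and no value here uses the age. The SMARTseq4 IP group holds 3 libraries made with the TaKaRa SMART-Seq v4 kit from 4 ng of RNA. The TruSeq4 IP group holds 3 libraries made with the Illumina TruSeq v2 kit from 4 ng of RNA. These are the libraries labelled IP of replicates 1 and 2 and the library labelled input of replicate 3. The latter has 21161 genes with reads and 36785680 counts, and the study lists both numbers under IP. It gives the number of genes as replicate 3 and the number of reads as replicate 1. The SMART-Seq v4 libraries were sequenced at one centre and the TruSeq libraries at another, on different instruments, so kit, centre and instrument cannot be told apart.

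Gfi1 is a transcriptional repressor that acts in blood lineages, and the embryonic liver is a site of blood formation, so a Cre driven from this locus can leave the tag in blood cells and their descendants. Kupffer cells are the macrophages that reside in liver. SMART-Seq v4 primes reverse transcription with oligo-dT, switches template at the end of the message, amplifies the full-length cDNA and then cuts it with a transposase. TruSeq selects poly-A RNA, fragments it, primes it with random oligonucleotides and ligates adapters before amplification. Both give libraries without strand information, so reads of a gene and of an overlapping antisense gene were not separated.

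Gene counts summed to between 14407184 and 19577709 per SMARTseq4 IP library and to between 18031264 and 36785680 per TruSeq4 IP library, and levels are given as CPM, counts scaled to that sum. The library labelled TruSeq4 input replicate 3 held 37681 CPM of 26 Kupffer cell and macrophage markers and 60234 CPM of hepatocyte markers, against 28581 to 42420 and 53086 to 62860 CPM in the other 2 TruSeq4 IP libraries. The library labelled TruSeq4 IP replicate 3 held 962 and 228746 CPM, beside 956 to 970 and 243814 to 256950 CPM in the other 2 TruSeq4 input libraries. The values thus go against the label of replicate 3, and the kit comparison in IP and its contrast with input were also made with the fractions as labelled. Gfi1 itself was low in all 6 IP libraries, at 0.694, 1.38 and 1.62 CPM in SMARTseq4 and 0.499, 1.33 and 1.09 CPM in TruSeq4 (log2 difference 0.36, SE 0.57, adjusted p = 0.69 in edgeR). Rpl22, the tagged protein, stood at 72.9, 31.4 and 34.8 CPM in SMARTseq4 and at 140, 67.4 and 67.9 CPM in TruSeq4, lower in SMARTseq4 in every mouse. In edgeR without the mouse as a block this difference missed the threshold (-1.01, SE 0.46, adjusted p = 0.14). Gapdh, used widely as a reference, had 0.208 to 14.3 CPM in SMARTseq4 and 0.111 to 7.94 CPM in TruSeq4 (0.81, SE 1.16, adjusted p = 0.65 in edgeR). Its mean in the deposited RPKM values was 5.59 in SMARTseq4 and 10.1 in TruSeq4, on the other side, so its level is uncertain from these counts. The cause was not tested.

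Between the kits, 1840 genes were higher in SMARTseq4 IP and 1967 were lower, out of 15291 tested (edgeR quasi-likelihood test, Benjamini-Hochberg adjusted p under 0.05). These are 12% and 12.9% of the genes tested. At 2-fold or more the counts were 1255 and 1209, or 8.21% and 7.91%. The replicate numbers name the mouse, and with the mouse as a block 2842 genes were higher and 3116 lower. With the fractions as labelled, 170 and 224 genes passed, and without replicate 3 of both kits, 333 and 393. Leaving out 1 library at a time, the counts fell furthest without SMARTseq4 replicate 3 (946 and 886) and were also over 1.5 times lower without TruSeq4 replicate 3 (1161 and 1192) and, for the lower genes, without SMARTseq4 replicate 2 (1207).

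Protein-coding genes with messages of 0.5 to 2 kb were more often higher than lower in SMARTseq4, and GC-rich genes more often lower. Beside all tested genes at a median log2 fold change of -0.04, the 499 protein-coding genes with a longest transcript of 0.5 to 1 kb had a median of 1.05, with 259 higher and 17 lower. The 2200 genes of 1 to 2 kb had a median of 0.33, with 439 higher and 92 lower. The 40 genes of at most 0.5 kb lay between them at 0.76, with 17 higher and 4 lower, and over all biotypes this shortest class had 137 higher and 114 lower of 649 (median 0.24). By counts, longer classes turned to the other side, at -0.12 for 2 to 4 kb, -0.23 for 4 to 6 kb and -0.18 for 6 to 10 kb. The 305 genes over 10 kb stood at -0.03. On deposited RPKM centred on the median of each library, these longer classes were not below 0. They stood at 0.002, 0.01, 0.15 and 0.32 in order of length, beside 0.11 for all protein-coding genes tested. The classes of 0.5 to 1 kb and 1 to 2 kb stood at 1.06 and 0.29 there. In all 3 mice the median of the 0.5 to 1 kb class was above 0, at 0.78, 1.13 and 1.14 for replicates 1, 2 and 3. The 2 to 4 kb class stood at -0.10, -0.12 and -0.15, and the 4 to 6 kb class at -0.01, -0.38 and -0.27. Replicate 1 lay above 0 in the longest classes, with 0.13, -0.43 and -0.26 for 6 to 10 kb and 0.31, -0.33 and -0.05 for over 10 kb. These finer length classes were chosen after the data were seen.

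The fold change also fell with GC content, within each length class of protein-coding genes from 1 to 10 kb. All genes tested were cut into 5 equal classes by GC content. The GC-poor class (31.0 to 43.7% of the longest transcript) had a median of 0.31, with 639 higher and 87 lower. The GC-rich class (55.1 to 73.7%) had a median of -0.48, with 174 higher and 830 lower. Both features combine: of 172 protein-coding genes of 6 to 10 kb in the GC-rich class, none was higher and 93 were lower (median -0.95), and of 237 genes of 1 to 2 kb in the GC-poor class, 86 were higher and 3 lower (median 0.69). Across protein-coding genes the fold change had a Spearman correlation of -0.36 with GC content and -0.28 with transcript length, a description over genes that share the same 6 libraries.

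**Figure D1:**
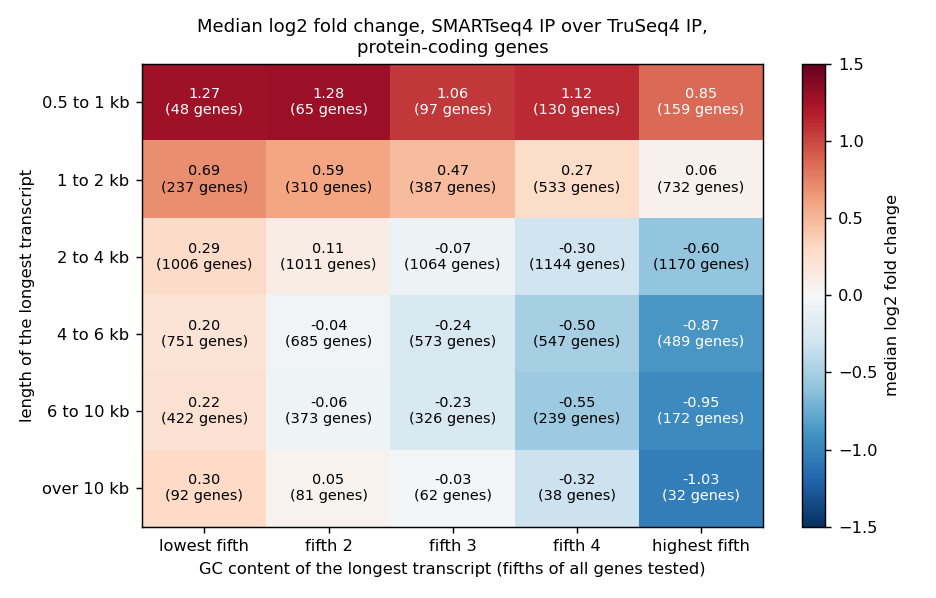
Median log2 fold change of SMARTseq4 IP over TruSeq4 IP for protein-coding genes, by length of the longest transcript (rows) and 5 equal classes of GC content (columns), with the number of genes in each cell. Medians run from 1.28 for 0.5 to 1 kb at a GC content of 43.7 to 47.5% to -1.03 for genes over 10 kb at 55.1 to 73.7%.

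The first 120 coding bases of 4 of the protein-coding genes named by fold change show the range of base composition, with G and C in capitals. Among the 10 higher and 10 lower protein-coding genes so named, they are the 2 higher with the lowest and the 2 lower with the highest transcript GC content, read from the GENCODE M21 transcripts on GRCm38 from the start codon on.
BC005561: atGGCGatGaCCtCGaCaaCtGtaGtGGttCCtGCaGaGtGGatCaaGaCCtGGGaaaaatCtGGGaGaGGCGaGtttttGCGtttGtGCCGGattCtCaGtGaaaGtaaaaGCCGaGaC
Cep85l: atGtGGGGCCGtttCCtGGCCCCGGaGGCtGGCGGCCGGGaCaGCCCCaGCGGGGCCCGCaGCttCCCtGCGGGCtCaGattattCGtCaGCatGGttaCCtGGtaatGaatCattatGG
Mpst: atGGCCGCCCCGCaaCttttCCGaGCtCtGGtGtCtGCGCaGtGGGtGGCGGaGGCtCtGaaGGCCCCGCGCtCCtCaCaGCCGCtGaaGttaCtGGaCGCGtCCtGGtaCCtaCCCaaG
Midn: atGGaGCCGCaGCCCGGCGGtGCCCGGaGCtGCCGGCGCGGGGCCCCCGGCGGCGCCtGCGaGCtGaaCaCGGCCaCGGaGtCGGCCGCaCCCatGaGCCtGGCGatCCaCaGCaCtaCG
Of these bases 60, 76, 78 and 92 are G or C, and the whole transcripts hold 40.7%, 40.8%, 58.4% and 59.3%. BC005561 lies at chr5:104508352-104522611 on the plus strand, Cep85l at chr10:53273443-53379947 on the minus strand, Mpst at chr15:78406416-78414013 on the plus strand and Midn at chr10:80148272-80158368 on the plus strand. The stretch does not stand for the whole message in each case: for Cep85l it holds 63.3% G and C, and the coding sequence 45.7%.

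A list with many higher genes was the nuclear-encoded respiratory chain, the subunits of complexes I to V that are made in the cytosol and carry out oxidative phosphorylation. Of 77 tested, 58 were higher in SMARTseq4 IP (75.3%, against 12% over all genes) and none was lower, with a median log2 fold change of 1.44. Its summed level was 15774 to 19310 CPM in SMARTseq4 and 6591 to 8381 CPM in TruSeq4, with no overlap (exact permutation test, two-sided, p = 0.1, which is the smallest that 3 against 3 libraries allow, adjusted p = 0.293 over 41 classes). The median longest transcript of the list is 1001 bases and its median GC content 50.2%, beside medians of 1.05 and 0.33 for all protein-coding genes of 0.5 to 1 kb and of 1 to 2 kb, and the part of length in the list's value was not tested. With the fractions as labelled 2 of the genes were higher, and leaving out 1 library gave 46 to 63.

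Ndufc1, a subunit of complex I, was among the largest. It stood at 139, 114 and 155 CPM in the SMARTseq4 libraries and at 15.6, 13 and 13.8 CPM in the TruSeq4 libraries, which do not overlap (log2 fold change 3.26, SE 0.25, adjusted p = 6.6e-05, edgeR). Cox7a2, a subunit of cytochrome c oxidase, was at 444, 317 and 419 against 96.9, 59.7 and 69.1 CPM (2.36, SE 0.32, adjusted p = 0.00098). Atp5k, a subunit of ATP synthase, was at 189, 84.3 and 120 against 32.9, 12.9 and 20.2 CPM (2.55, SE 0.46). Uqcrb of complex III and Ndufs6 of complex I rose by 2.36 and 2.63. Sdhd, Sdhb and Atp5f1, with longest transcripts of 1231, 1232 and 2527 bases, moved least among the genes that passed, by 0.74, 0.81 and 0.73. Cox17, which carries copper to cytochrome c oxidase, and Atpif1, an inhibitor of ATP synthase, were named by the rule with 3.59 and 3.45.

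Replication-dependent histones, whose mature messages end in a stem-loop rather than a poly-A tail, were higher where they passed. Of 19 tested, 7 were higher (36.8%, against 12% over all genes) and none lower, with a median of 1.05. The summed level was 351 to 439 CPM in SMARTseq4 and 151 to 257 CPM in TruSeq4. Hist1h1e, a linker histone, stood at 35.3, 27.2 and 45.8 CPM against 0.887, 0.630 and 1.44 CPM (5.19, SE 0.35, adjusted p = 3.8e-05). Hist1h1b, another linker histone, was at 27.0, 18.1 and 43.7 against 0.943, 0.455 and 0.435 CPM (5.65, SE 0.48). Hist1h4d, which encodes H4, was at 34.4, 27.5 and 53.0 CPM in SMARTseq4, and in TruSeq4 at 0.998 and 0.598 CPM with the other library at 0 (6.24, SE 0.74). That the kits do not overlap was part of the rule that named these genes.

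Among other protein-coding genes at a mean of at least 10 CPM, the higher group included Rps27 of the small ribosomal subunit (4.23, SE 0.27), the corepressor Lcor (3.98, SE 0.24), the ubiquitin ligase Rnf125 (3.80, SE 0.38), Cep85l (4.67, SE 0.57) and BC005561 (4.4, SE 0.50). On the deposited RPKM values + 0.1, Lcor and Cep85l lost the call, at 0.10 and 0.97 (limma, adjusted p = 0.79 and 0.094). With these values centred on the median of each library they kept it, at 0.66 and 1.52 (limma, adjusted p = 0.028 and 0.002). BC005561 and Rnf125 kept it without centring, at 2.57 and 2.44. Of the 82 tested cytosolic ribosomal proteins, 11 were higher (13.4%) and 12 lower (14.6%), near the 12% and 12.9% over all genes, with a median of 0.13. With the mouse as a block they were 24 and 24, and on centred RPKM 49 were higher and 2 lower. On the lower side were Ankrd52 (-4.71, SE 0.30), the RNA-binding protein Taf15 (-4.57, SE 0.35), Isoc2a (-4.50, SE 0.44), the sulfurtransferase Mpst (-4.41, SE 0.36), the Wnt coreceptor Lrp5 (-4.35, SE 0.29), Midn (-3.83, SE 0.40) and the transcription factor Foxo4 (-3.59, SE 0.46). On centred RPKM, Ankrd52, Taf15 and Lrp5 were at -2.16, -2.92 and -2.40. Lrp5 stood at 8.05, 7.56 and 8.05 CPM in SMARTseq4 and at 91.2, 225 and 187 CPM in TruSeq4. Midn stood at 15.1, 5.36 and 9.56 against 121 to 161 CPM.

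The immune lists hold genes of blood cell types and of innate immune responses. Of 335 tested genes of 12 lists, 30 were higher (8.96%) and 31 lower (9.25%), both below the shares over all genes. With the mouse as a block the counts were 65 and 51, and with the fractions as labelled 0 and 1. Leaving out 1 library gave 15 to 43 higher and 14 to 37 lower; the higher count was 16 without SMARTseq4 replicate 2, 15 without SMARTseq4 replicate 3 and 15 without TruSeq4 replicate 3, and the lower count was 14 without SMARTseq4 replicate 3. The 256 protein-coding genes had a median of -0.01. By length, 23 genes of 0.5 to 1 kb had a median of 1.04 with 10 higher and none lower, 118 of 2 to 4 kb had -0.16 with 3 higher and 15 lower, and 9 of 6 to 10 kb had -0.86 with 4 lower.

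**Figure D2:**
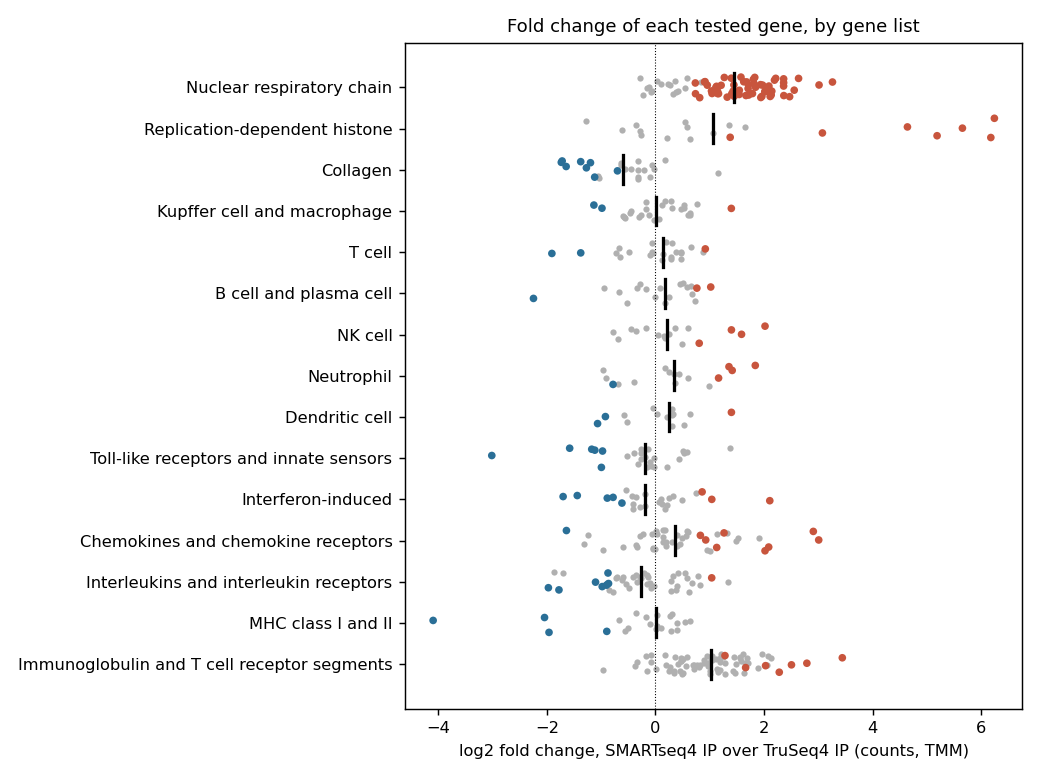
Log2 fold change of SMARTseq4 IP over TruSeq4 IP for each tested gene of 15 lists (points), with the median of the list as a black line. Red points were higher and blue points lower with an adjusted p under 0.05, and grey points did not pass. The respiratory chain lies to the right of 0 with a median of 1.44, and the lists of cell types straddle 0.

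The 8 immune genes that the rule names as higher have longest transcripts of 452 to 1222 bases. That the groups do not overlap was part of the rule. Ifi27l2a, an interferon-induced gene of 463 bases, was at 708, 666 and 700 CPM in SMARTseq4 and at 184, 152 and 141 CPM in TruSeq4 (2.10, SE 0.26, adjusted p = 0.00063). S100a8, a subunit of calprotectin in neutrophils, was at 94.0, 73.5 and 99.6 against 27.7, 20.9 and 25.7 CPM (1.84, SE 0.25), and Ngp, a neutrophil granule protein, at 13.5, 13.1 and 17.4 against 5.10, 4.76 and 6.71 CPM (1.41, SE 0.26). Both encode proteins of the neutrophil. Nkg7, a protein of cytotoxic granules, was at 71.0, 95 and 135 against 34.2, 25.7 and 38.5 CPM (1.58, SE 0.26), and Klrd1, the receptor chain CD94, at 25.1, 37.0 and 48.0 against 13.9, 13.2 and 14.1 CPM (1.40, SE 0.23). Cxcl13, a chemokine that attracts B cells, ranged from 15 to 33.5 CPM in SMARTseq4 and from 1.61 to 9.52 CPM in TruSeq4 (2.08, SE 0.47). Iglc2 and Iglc3, constant segments of the immunoglobulin lambda chain that resemble each other in sequence, were higher by 2.28 and 2.50 and are uncertain as separate genes.

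The 8 named as lower have longest transcripts of 1735 to 8004 bases and include receptors, sensors and a transcription factor. Oas3, a sensor of double-stranded RNA, was at 29.8, 38.5 and 33.4 CPM in SMARTseq4 and at 63.4, 154 and 125 CPM in TruSeq4 (-1.70, SE 0.25, adjusted p = 0.0015). Thy1, a surface protein of T cells, was at 14.2, 7.41 and 14.1 against 43.6, 44.3 and 46.9 CPM (-1.91, SE 0.28). Il3ra, a chain of the interleukin-3 receptor, was at 4.03, 3.78 and 6.55 against 21.5, 12.6 and 21.0 CPM (-1.97, SE 0.34). The absence of overlap was again part of the rule. Cxcr4, a chemokine receptor, was at 7.91 to 11.1 against 17.7 to 39.2 CPM (-1.64, SE 0.25), and Gbp5, a guanylate-binding protein, at 6.66 to 10.6 against 15.7 to 39.0 CPM (-1.44, SE 0.33). Pax5, a transcription factor of B cells, was at 8.61, 7.97 and 6.08 against 30.3, 46.7 and 32.9 CPM (-2.25, SE 0.25), but by centred RPKM its difference was -0.31. H2-T24, a class I gene with close relatives, was lower by -2.04 (SE 0.26), and by -1.44 on centred RPKM.

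**Figure D3:**
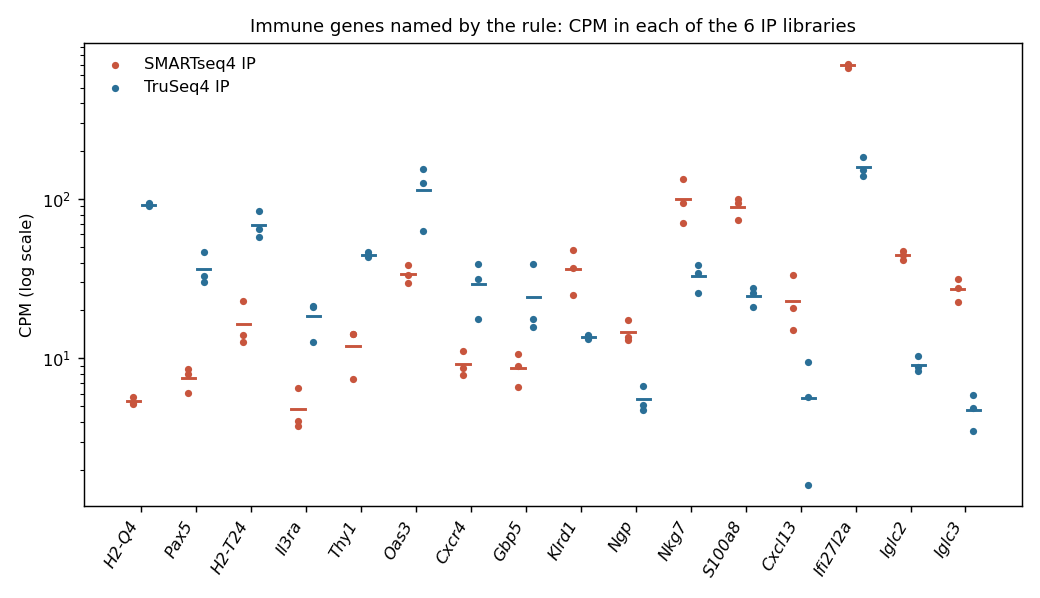
CPM on a log axis of the 16 immune genes named by the rule in each SMARTseq4 IP library (red) and TruSeq4 IP library (blue), with the mean as a short line, from the lowest to the highest fold change. The genes on the left are higher in TruSeq4 and those on the right in SMARTseq4, and the rule admits no gene with overlapping groups.

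Counts over the lists of cell types are read beside the 12% higher and 12.9% lower over all genes. Kupffer cell and macrophage markers summed to 23423, 45091 and 36611 CPM in SMARTseq4 and to 28581, 42420 and 37681 CPM in TruSeq4, so that the kits overlap and replicate 1 was lowest in both. In bulk RNA, fewer cells of a type and less RNA per cell cannot be told apart. Of 26 markers, Tyrobp, the adaptor DAP12 with a transcript of 597 bases, was higher (1.40, SE 0.24), and Mpeg1 and Lgmn, an endosomal pore-forming protein and a lysosomal protease, were lower (-1.13 and -0.99), and with the mouse as a block 8 were higher and 7 lower. T cell markers had 1 higher, Cd3d (0.92), and 2 lower, Thy1 and Cd4 (-1.38), among 23, which is 4.35% and 8.70%, with 4 and 4 under the block. NK cell markers had 4 higher (25%) and 0 lower among 16. Neutrophil markers had 4 higher (25%) and 1 lower among 16, and their sum was 436 to 473 CPM in SMARTseq4 and 278 to 293 CPM in TruSeq4, with no overlap (exact permutation p = 0.1, adjusted p = 0.293).

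Most chemokine and interleukin genes did not pass. Of 44 chemokines and chemokine receptors, 8 were higher (18.2%, against 12% over all genes) and 1 lower (median 0.35), and with the mouse as a block 14 and 2. The higher ones included Ccl6, a chemokine of myeloid cells, at 294, 630 and 522 against 152, 244 and 211 CPM (1.26, SE 0.26), and Ccl24 at 392, 469 and 481 against 243, 236 and 222 CPM (0.93, SE 0.21). Of 44 interleukins and interleukin receptors, 1 was higher, Il18 (1.04, SE 0.25), and 7 were lower (15.9%, against 12.9% over all genes), all receptor chains (median -0.27). Il6ra, the interleukin-6 receptor, was at 97.2, 96.8 and 127 against 166, 243 and 296 CPM (-1.10, SE 0.21), and Il6st, the signalling chain shared with it, at 61.6, 43.5 and 47.6 against 79.3, 95.4 and 110 CPM (-0.86, SE 0.22). Of 25 Toll-like receptors and innate sensors, 0 were higher and 6 lower (24%, against 12.9% over all genes, median -0.20). With the mouse as a block 2 of them were higher and 7 lower. Among the 6 was Tlr9, the receptor for unmethylated DNA, at 0.833, 0.511 and 0.406 against 1.28, 8.58 and 5.22 CPM (-3.01, SE 0.66). Of 25 interferon-induced genes, 3 were higher (12%) and 5 lower (20%), beside 12% and 12.9% over all genes, with 4 and 8 under the block. Rsad2, an antiviral enzyme, stood on the higher side at 202, 259 and 166 against 94.9, 128 and 86.0 CPM (1.04, SE 0.25). Of 77 immunoglobulin and T cell receptor segments, 7 were higher (9.09%, below the 12% over all genes) and 0 lower, with a median of 1.02, and with the mouse as a block 15 were higher.

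Of 24 tested collagens, which have long GC-rich messages, 8 were lower (33.3%, against 12.9% over all genes) and 0 higher, with a median of -0.59. Col18a1 was at 142, 125 and 185 against 249, 361 and 448 CPM (-1.20, SE 0.23). On centred RPKM the collagen median was 0.05, with 2 lower. Sinusoidal endothelial markers had 4 lower (25%) and 0 higher of 16, and stellate cell markers 4 lower (28.6%) and 0 higher of 14, one of which, Col1a1, is also a collagen. On centred RPKM the endothelial median went from -0.36 to -0.01, and the stellate median from -0.34 to -0.36, with 3 lower in each list. The stellate cell markers summed to 317 to 399 CPM in SMARTseq4 and 412 to 521 CPM in TruSeq4, with no overlap (exact permutation p = 0.1, adjusted p = 0.293). Hepatocyte markers had 2 higher, the short apolipoproteins Apoa2 (1.52) and Apoc3 (1.46), and 4 lower, Alb (-1.04), Apob (-1.20), Ass1 (-1.78) and Fga (-0.68), of 26, and with the mouse as a block 7 and 7. Of 21 tested transcription factors of blood lineages, 3 were higher (14.3%) and 2 lower (9.52%), near the 12% and 12.9% over all genes. With the mouse as a block they were 3 and 6. Among them Id2 was higher (1.64, SE 0.19), at 410, 515 and 549 against 137, 166 and 171 CPM. Cebpa was lower (-2.19, SE 0.20), at 57.8, 54.5 and 67.6 against 259, 256 and 308 CPM.

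Some of the largest differences in counts are not present in the deposited RPKM values, whose handling of reads that align to several places is not stated. Alignments to several places numbered 1.37 to 2.12 per counted read in SMARTseq4 IP and 0.337 to 0.608 in TruSeq4 IP, with no overlap, and the part of these alignments in the results below was not tested. Mup10, a major urinary protein with many relatives, had 1 count in all SMARTseq4 libraries and 1386 in TruSeq4 (852-fold lower by pooled counts, 95% counting interval 153 to 33668, for counting error only), while its RPKM was 337, 126 and 23.5 in SMARTseq4 and 98.7, 34.5 and 6.12 in TruSeq4. The processed pseudogene Rpl13-ps3 was at 0.139, 0.102 and 0.348 CPM against 41.1, 19.6 and 20.2 CPM, with RPKM of 85.9, 76.9 and 105 against 91.4, 61.0 and 67.6. H2-Q4, a class I gene of the Q region, was at 5.76, 5.26 and 5.16 against 90.1, 92.7 and 94.8 CPM (-4.09), with RPKM of 4.95, 9.82 and 12.5 against 10.4, 15.4 and 15.2.

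Of the erythroid genes tested, Hba-a2, an alpha globin, passed as lower (-1.75, SE 0.42), at 19174, 18014 and 14501 CPM against 74495, 49632 and 46351 CPM. Its twin Hba-a1 did not pass, at 29934, 30901 and 24527 against 31311, 15722 and 15889 CPM. The coding sequences of the pair have equal lengths of 426 bases and differ at 1 base, with a longest shared run of 380 bases, so these counts are uncertain. By RPKM both alpha globins and both beta globins, Hbb-bs and Hbb-bt, were higher in every SMARTseq4 library than in every TruSeq4 library. Of 236 processed pseudogenes lower by 2-fold or more in counts, 130 (55.1%) had the same sign on centred RPKM and 39 were 2-fold or more in the opposite direction, while of 134 higher by 2-fold or more all 134 had the same sign. Of protein-coding genes at 2-fold or more in counts, 808 of 900 lower (89.8%) and 938 of 947 higher (99.0%) had the same sign. Fewer were also 2-fold or more in that direction on centred RPKM, 458 of the lower and 531 of the higher. In the opposite direction, 11 of the lower and 0 of the higher were 2-fold or more.

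**Figure D4:**
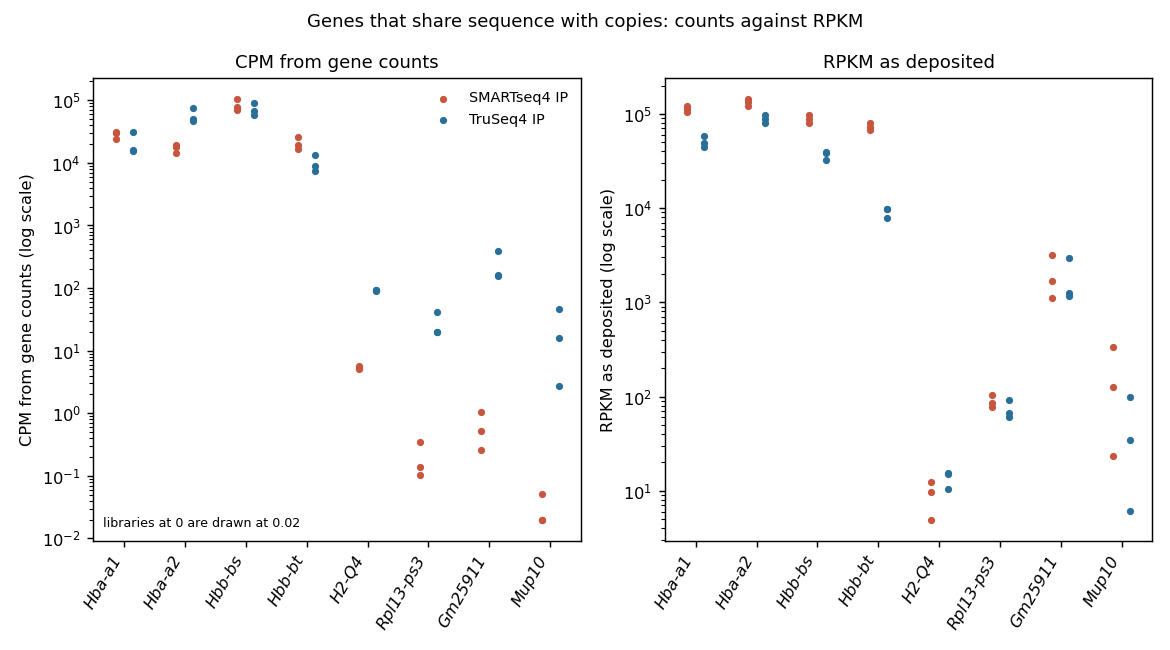
Each library's CPM from counts (left) and deposited RPKM (right) on log axes for 8 genes that resemble other genes, with SMARTseq4 IP in red and TruSeq4 IP in blue. H2-Q4, Rpl13-ps3, Gm25911 and Mup10 are far lower in SMARTseq4 by counts, whereas by RPKM the kits lie close together for Rpl13-ps3 and Gm25911.

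Most non-coding genes did not pass, and of those that passed the classes differed in direction. Antisense genes had 40 higher and 8 lower of 228 (median 0.84), lincRNAs 36 and 12 of 235 (0.34), and genes annotated as TEC, which await experimental evidence, 38 and 8 of 178 (0.70). Their higher shares were 17.5%, 15.3% and 21.3%, against 12% over all genes, and their lower shares 3.51%, 5.11% and 4.49%, against 12.9%. With the mouse as a block, antisense genes had 66 and 9, and lincRNAs 52 and 20. The summed antisense level was 1805 to 3215 CPM in SMARTseq4 and 1515 to 5748 CPM in TruSeq4, so the kits overlap. Processed pseudogenes had 142 higher (12.8%) and 253 lower (22.9%) of 1106. The miRNA genes had 1 higher (7.14%) and 6 lower (42.9%) of 14, with a median of -1.56 that was 1.11 on centred RPKM. Kcnq1ot1, a long nuclear RNA that silences imprinted neighbours of Kcnq1, lies at chr7:143203458-143296549 on the minus strand and was at 307, 207 and 227 CPM against 20.1, 14.7 and 20.9 CPM (3.74, SE 0.31, adjusted p = 8.7e-05). Strand was not recorded in either kit, so its counts may include reads of the gene on the other strand. The ribosomal RNA gene CT010467.1 was at 71797, 3796 and 5771 CPM in SMARTseq4 and at 36670, 11031 and 14512 CPM in TruSeq4. By CPM, SMARTseq4 replicate 1 thus stood apart, and the groups overlap. By deposited RPKM the gene was at 13102.3, 1090.55 and 1774.36 in SMARTseq4 and at 45952.5, 15259.4 and 20030.8 in TruSeq4, which do not overlap. The cause of this was not tested. Without SMARTseq4 replicate 1, 1604 genes were higher and 1708 lower between the kits.

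The kit difference was also tested against that in input, with 12 libraries and the difference of differences as the contrast. Of 16768 genes tested, 307 (1.83%) had a higher signed log2 difference (SMARTseq4 over TruSeq4) in IP and 18 (0.107%) a lower one; a higher value can come with a kit difference that is smaller in size in IP. With the mouse as a block the counts were 704 and 160, with the fractions as labelled 0 and 0, and without replicate 3 of all groups, a setting added after the data were seen, 0 and 0. At an unadjusted p under 0.05, 2692 and 1629 genes passed in those last settings. Without SMARTseq4 replicate 1 or 3 the first count was 78 and 75, without SMARTseq4 replicate 2 it was 489, and without TruSeq4 replicate 3 it was 173. The second count was 1, 76 and 0 without SMARTseq4 replicate 1, 2 and 3, and 10, 10 and 9 without TruSeq4 replicate 1, 2 and 3. Of the genes with a higher value in IP, 256 of 307 (83.4%) had a longest transcript over 4 kb, against 31.3% of all tested. In input the median log2 fold change of protein-coding genes over 10 kb was -0.87, where in IP it was -0.03, and for 0.5 to 1 kb it was 1.07 in input and 1.05 in IP.

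Kcnq1ot1 was at 7.30, 5.77 and 4.93 CPM in SMARTseq4 input and at 4.66, 4.09 and 3.90 CPM in TruSeq4 input, so the signed difference was 3.25 higher in IP (SE 0.35, adjusted p = 0.0034). Lcor was at 17.0, 10.4 and 13.6 against 4.44, 6.95 and 8 CPM in input, and its signed difference was 2.91 higher in IP (SE 0.35). Ep300, a histone acetyltransferase, had a log2 difference of 0.37 in IP, at 81.7, 69.6 and 85.0 against 48.7, 70.4 and 68.0 CPM, but was at 11.5, 9.47 and 8.11 against 25.1, 29.1 and 29.0 CPM in input (-1.55, so 1.90 higher in IP, SE 0.24). Huwe1, a large ubiquitin ligase, was at 67.5, 62.8 and 71.0 against 63.3, 75.9 and 82.0 CPM in IP and at 39.5, 31.5 and 36.9 against 104, 131 and 123 CPM in input, with log2 differences of -0.12 and -1.76. For Ep300 and Huwe1 the kits thus differed more in input than in IP.

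**Figure D5:**
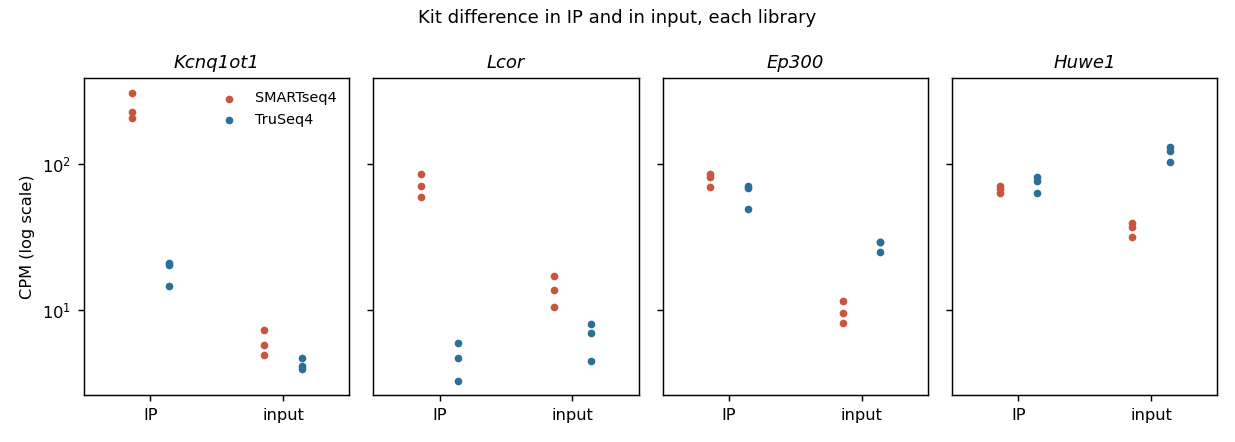
CPM on a shared log axis of 4 genes whose signed log2 difference between kits is higher in IP than in input, each library as a point, SMARTseq4 in red and TruSeq4 in blue. Kcnq1ot1 is separated by kit in IP, at 207 to 307 against 14.7 to 20.9 CPM, while in input the kits lie at 4.93 to 7.30 and 3.90 to 4.66 CPM, and Huwe1 is separated in input only.

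The same kits were used on other aliquots of these mice, with 0.25 ng in SMARTseq0.25 and 70 ng in TruSeq70, libraries that share no sample with the 6 above but do share mice, kits and centres. Amount and kit differ together in that comparison. Of 14613 genes tested, 928 (6.35%) were higher and 919 (6.29%) lower in SMARTseq0.25 IP. With the mouse as a block these were 1484 and 1529. Both counts were over 1.5 times lower without replicate 1 (539 and 558), 2 (539 and 406) or 3 (352 and 313) of SMARTseq0.25 and without replicate 2 (464 and 463) or 3 (356 and 337) of TruSeq70. Of the 1766 genes higher in SMARTseq4 and tested there, 708 were also higher (40.1% of them and 76.3% of the 928), and none was lower. Of the 1899 lower genes tested, 691 were also lower (36.4%, and 75.2% of the 919) and 1, Zbtb7a, was higher. The respiratory chain had 36 higher and 0 lower of 77 (median 1.08), replication-dependent histones 7 and 0 of 18, and protein-coding genes of 0.5 to 1 kb a median of 0.86. Those of 6 to 10 kb and over 10 kb had medians of 0.03 and 0.31. All immune lists had 13 higher and 15 lower of 318, beside 6.35% and 6.29% over all genes. Chemokines and chemokine receptors had 1 and 0 of 41, Toll-like receptors and innate sensors 1 and 1 of 25, and neutrophil markers 1 and 0 of 16. Stellate cell markers had 0 and 0 of 14, NK cell markers 3 and 0 of 16, and interleukins with their receptors 0 and 4 of 38.

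Genes with at least 1 read numbered 19835 to 20551 in SMARTseq4 and 17467 to 21161 in TruSeq4 (exact permutation test, two-sided, p = 0.4). With every library drawn down to 14407184 counts they numbered 19835 to 20222 and 17330 to 19998 (exact permutation p = 0.2). With at least 5 reads the means were 16544 ± 459 and 17040 ± 1212 (SD, n = 3 each, exact permutation p = 0.5).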

How the data were processed

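The members and gene lists were chosen with earlier results of these data known. The authors removed adapters, trimmed reads to a common length, aligned them to GRCm38 with TopHat and deposited counts per Ensembl gene, not normalized, with replicates not pooled; the strand setting is not stated. They also deposited RPKM values; the methods name Bedtools for reads on exons and HTSeq for coding regions, without saying which the RPKM values rest on. To obtain CPM, each library's counts were scaled to their sum across 47729 genes. Gene names, biotypes, lengths, exon numbers and GC content came from GENCODE M21 (47310 genes matched). Counts were tested with edgeR 4.0.16 (R 4.3.3), TMM factors, filterByExpr, the quasi-likelihood test and no block, with an adjusted p under 0.05. The SE is the fold change divided by the root of the F value. DESeq2 1.42.0 and limma 3.58.1 were alternatives, the latter on log2(RPKM + 0.1) or log2(RPKM + 1), and centred RPKM has each library's median subtracted. Libraries were compared with the exact permutation test. The fit was tested on simulated data. Figures and other steps used Python 3.11.15, scipy 1.17.1 and matplotlib 3.10.9.

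Named genes are Gfi1, Rpl22, Gapdh, genes of the lists, and, among genes with an adjusted p under 0.05, 2-fold or more, a mean of at least 10 CPM and no overlap between kits, the 10 protein-coding, 5 other and 8 immune genes with the largest change in each direction. Rsad2, Tlr9 and other list genes were picked after their values were seen, as were Ep300 and Huwe1, from the 8 genes with the smallest p of the IP against input contrast. Replicate numbers name the mouse per the study's methods, and deviations from the group mean correlated between kits at 0.45, 0.42 and 0.53 within a mouse. A total of 3 counts, the floor used for depth, is 0.0816 to 0.208 CPM per library, for counting error only.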

Additional observations from a re-analysis of the deposited data

Results flagged for a closer look

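The difference between the kits was not the same in IP and in input, by a test of that difference over 12 libraries (edgeR, adjusted p under 0.05). The signed log2 difference was higher in IP for 307 genes (1.83%) and lower for 18 (0.107%). With the fractions as labelled or without replicate 3 it was 0 and 0 genes, as given above with the counts at an unadjusted p. Of the genes named by the rule, 4 were among those with a higher value in IP. That rule takes genes by their kit difference in IP, which is part of this contrast, so they are not independent support for it. Kcnq1ot1 differed by 3.25 more on the log2 scale in IP (3.74 in IP and 0.47 in input), Lcor by 2.91 (3.98 and 1.05), Cep85l by 3.37 (4.67 and 1.26) and BC005561 by 2.48 (4.4 and 1.89). The adjusted p-values were 0.0034, 0.0062, 0.026 and 0.037.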

How the results depend on the processing

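In the main comparison, higher and lower genes numbered 170 and 224 with the fractions as labelled, 333 and 393 without replicate 3 of both kits, and 2842 and 3116 with the mouse as replicate block. By limma on RPKM + 0.1 they were 767 and 3029, and on RPKM + 1 736 higher, where the median of all genes shifted by -0.40 and -0.13. The share of higher genes among those called was 20.2% and 20.8% on RPKM, 61.0% on centred RPKM and 48.3% on counts. Leaving out 1 library gave 946 to 2279 higher and 886 to 2191 lower. The other settings (RLE factors, total counts, DESeq2, no filter, CPM of at least 1 in all libraries, 12 libraries and protein-coding genes only) stayed within 1.5 times.

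For the difference between IP and input, the counts were 0 and 0 with the fractions as labelled and without replicate 3, 704 and 160 with the replicate block, and 75 to 489 and 0 to 76 with 1 library left out. For SMARTseq0.25 against TruSeq70 they were 1484 and 1529 with the block and 352 to 985 and 313 to 684 with 1 library left out. The immune lists had 65 higher and 51 lower with the block, 0 and 1 as labelled, and 15 to 43 and 14 to 37 with 1 library left out. The respiratory chain had 2 higher as labelled. For genes of 0.5 to 1 kb of all biotypes, the median was 0.67 and fell to 0.41 with the union of exons as length, and for antisense genes to 0.71 as labelled. Mup10 changed sign on RPKM (1.85, centred 2.41, and 1.79 on RPKM + 1), as did Gm25911 (0.15, 0.71 and 0.15) and Rpl13-ps3 (0.29, 0.85 and 0.29); adjusted p-values from limma were 0.12 to 0.84. Over 48 named genes and their alternatives, 821 of 886 values stayed on the same side of the threshold, 51 lost the call and 5 gained it. The other 9 changed sign and belong to 3 genes called in the main comparison. Changes of sign in a gene without a call are not among the 9, as for Gapdh (0.81, and -0.27 on centred RPKM). The cause of these changes was not tested. The depth limits levels to the 0.0816 to 0.208 CPM that 3 counts amount to in a library.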
